A study of Homo sapiens with 9 samples.

Results

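Activin and TGF-beta ligands, the secreted proteins that hold activin inactive, and the activin receptors are described here through 10 genes picked by symbol: INHBA, INHBB, FST, FSTL3, ACVR1, ACVR1B, ACVR2A, ACVR2B, TGFB1 and TGFB2. All 10 were found among the 23710 entries of a table of read counts, and all 10 passed the filter on low counts. The cells were MDA-MB-231, a line long grown from a human triple-negative breast cancer, transduced with lentivirus carrying a pGIPZ hairpin vector. The vector held the non-targeting hairpin shNT, or shUGDH-1 or shUGDH-2 against UGDH, the enzyme that makes UDP-glucuronate, and each was sequenced in 3 libraries. The labels call these biological replicates without saying that transduction was repeated, so each p-value reflects only how these libraries vary. The hairpin label of every library also begins with shNT, and whether the knockdown cells carry that hairpin too is not stated. The 10 genes were picked around INHBA with its higher level under both UGDH hairpins known, so INHBA against shNT is described without a test. The other genes and all lists below were also chosen with earlier results of these data known. Their p-values are therefore not those of genes chosen blind. In bulk RNA, fewer cells of a type and less RNA per cell cannot be told apart.

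Activins are secreted dimers of beta subunits, activin A of the INHBA product and activin B of the INHBB product. They bind a type II receptor, the product of ACVR2A or ACVR2B, which then phosphorylates a type I receptor, mainly that of ACVR1B, and this passes the signal to SMAD2 and SMAD3. TGF-beta ligands reach the same SMADs through TGFBR1 and TGFBR2 after release from a latent complex, and follistatin (FST) and FSTL3 bind activin and keep it from its receptors. In breast cancer cells this signalling is known for its links to growth arrest, matrix production and invasion.

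The hairpin sequences define the groups. As the labels give them, in DNA letters with the seed (bases 2 to 8, which can pair with partly matched targets) in capitals, they read:
shNT: aTCTCGCTtgggcgagagtaag
shUGDH-1: tTGCATCAaatatgcgacg
shUGDH-2: aTATACTTcagatctgctg
The reverse complement of shUGDH-1 occurred in 5 and that of shUGDH-2 in 6 of the 9 coding UGDH transcripts of GENCODE release 29 (GRCh38), always inside the coding sequence, and that of shNT in 0. UGDH had 690, 654 and 590 counts in the control libraries, 99, 97 and 74 under shUGDH-1, and 96, 86 and 84 under shUGDH-2. Every knockdown library lay below every control library.

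Perfect matches to the seed of a UGDH hairpin were present in the 3′ UTR of 4 of the 10 genes, read from the GENCODE transcript with the longest 3′ UTR. The sites are shown as sequence features of the 10 genes. The log2 difference of shUGDH-2 from shUGDH-1 was 0.28 for FST, 0.28 for TGFB2, -0.28 for INHBA and 0.04 for ACVR2B. In genes with no match to either UGDH seed it was -1.52 for INHBB, -0.19 for FSTL3 and 0.35 for ACVR1B. For ACVR1, ACVR2A and TGFB1, also without such a match, it was 0.08, -0.10 and 0.03. The match is in capitals:
FST, seed of shUGDH-1: atacttttttcTGATGCAattttatatttt
TGFB2, seed of shUGDH-1: gaaaacacctgTGATGCAataagactatct
INHBA, seed of shUGDH-2: ctttgaaatagAAGTATAagttgctaccat
ACVR2B, seed of shUGDH-2: tgtcttgtagtAAGTATAttttaatgtaag
The seed of shNT had 1 match each in INHBB and ACVR1B. Over 11209 tested genes with at least 50 bases of 3′ UTR, 6.2% held a match for shNT, 11.4% for shUGDH-1 and 15.3% for shUGDH-2. A match is a run of letters and not a measured site, and its part in any difference was not tested.

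INHBA, the activin A subunit gene, showed the largest increase over control among the 10. In CPM (counts scaled to a common library size) the control libraries stood at 3.76, 3.4 and 4.86, those of shUGDH-1 at 13.63, 12.04 and 13.57, and those of shUGDH-2 at 9.94, 10.55 and 11.64. Every knockdown library was above every control library, and shUGDH-1 was above shUGDH-2 without overlap. Group means were 4.01 ± 0.757, 13.1 ± 0.901 and 10.7 ± 0.859 CPM (SD, n = 3). The log2 fold change over control was 1.70 (SE 0.14) for shUGDH-1, or 3.25-fold, and 1.42 (SE 0.14) for shUGDH-2, or 2.68-fold. By size of change these rank 10 and 18 among the 12546 genes tested. The hairpins themselves, shUGDH-2 against shUGDH-1, differed by -0.28 (SE 0.11, adjusted p = 0.092 by edgeR's quasi-likelihood test), which did not pass the threshold of 0.05.

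INHBB, the activin B subunit gene, was near the limit of detection. It had 12, 7 and 13 counts in the control libraries, 7, 17 and 4 under shUGDH-1, and 3, 3 and 4 under shUGDH-2. The shUGDH-2 libraries were lowest, although 1 shUGDH-1 library equalled the highest of them in counts, and the shUGDH-1 libraries spread across the control range. INHBB fell under shUGDH-2, at a log2 fold change of -1.67 (SE 0.52, adjusted p = 0.019, edgeR's quasi-likelihood test), and stood at -0.15 (SE 0.41, adjusted p = 0.84) under shUGDH-1. The shUGDH-1 value has no stable sign in edgeR: it was -0.81 (adjusted p = 0.31) without shUGDH-1 replicate 2, the library with 17 counts, -0.36 without shNT replicate 2, and 0.04 to 0.08 without shNT replicate 3, shUGDH-1 replicate 1 or shUGDH-1 replicate 3. The fall was no longer called without shNT replicate 1 (adjusted p = 0.051), shNT replicate 3 (0.093), shUGDH-2 replicate 1 (0.063) or shUGDH-2 replicate 2 (0.073), in edgeR fits of the remaining libraries. The direct difference between hairpins was -1.52 (SE 0.53, adjusted p = 0.054), and was -0.86 (adjusted p = 0.51) without shUGDH-1 replicate 2. In edgeR it passed with only these 2 groups fitted (0.047) and without shNT replicate 1 (0.043), shUGDH-1 replicate 1 (0.038) or shUGDH-1 replicate 3 (0.036).

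**Figure D1:**
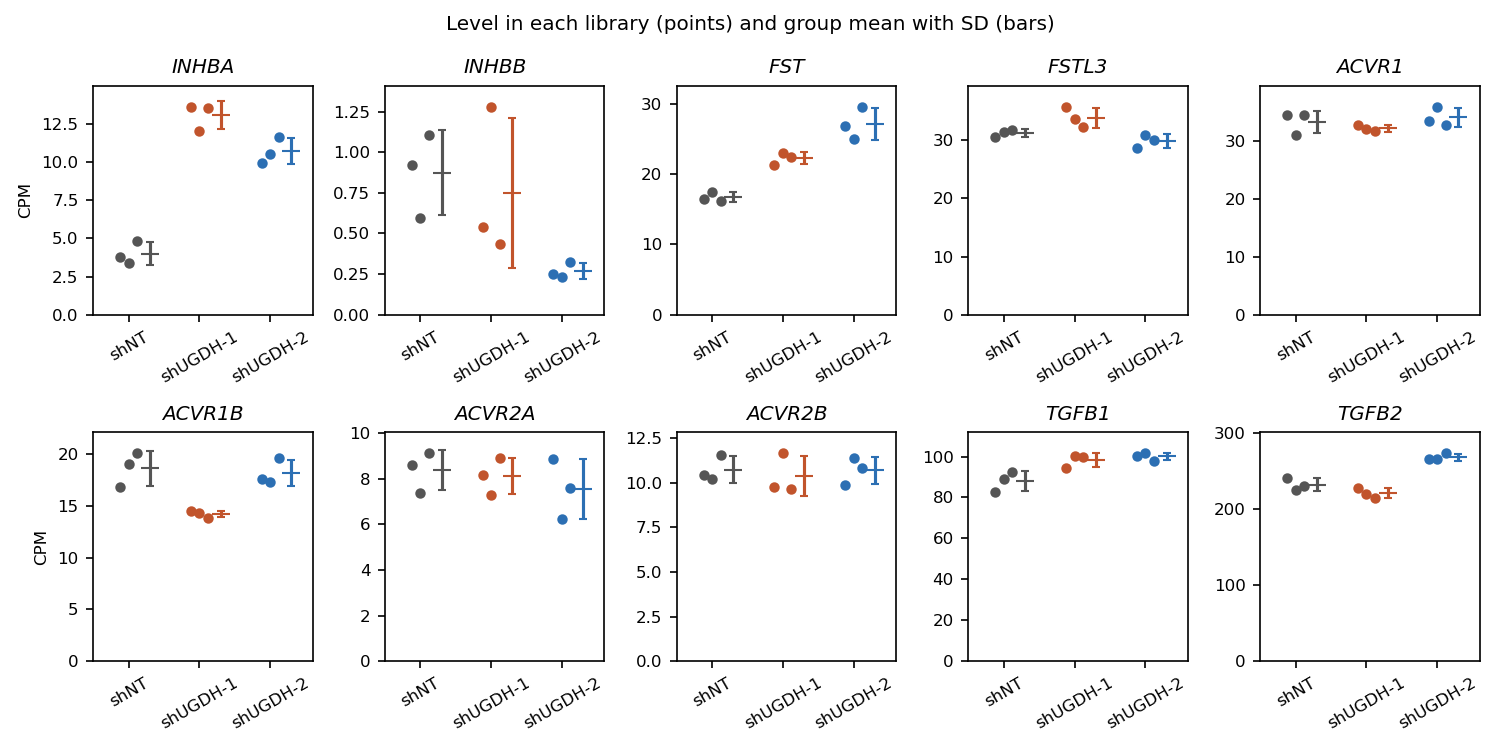
CPM of each of the 10 genes (y axis, from 0, own scale) in the 3 libraries of each hairpin (points), with group mean and SD. INHBA, FST and, by a smaller margin, TGFB1 sit higher in all 6 knockdown libraries than in the control libraries, and ACVR1B sits lowest under shUGDH-1.

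FST, which encodes the activin inhibitor follistatin, rose under both hairpins. The control libraries stood at 16.4, 17.5 and 16.2 CPM, those of shUGDH-1 at 21.3, 23.0 and 22.5 CPM, and those of shUGDH-2 at 26.8, 25.0 and 29.6 CPM. The 3 groups did not overlap. On the log2 scale the change was 0.41 (SE 0.08, 1.33-fold, adjusted p = 0.00013) for shUGDH-1 and 0.70 (SE 0.08, 1.62-fold, adjusted p = 6.9e-10) for shUGDH-2, from edgeR's quasi-likelihood test. FST was highest under shUGDH-2, where INHBA was highest under shUGDH-1. The direct difference for FST was 0.28 (SE 0.08, adjusted p = 0.0073), a call lost with DESeq2 (0.06) and, in edgeR, without shUGDH-1 replicate 1 (0.063) or shUGDH-2 replicate 3 (0.11).

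FSTL3, the other activin-binding protein gene, did not pass against control under either hairpin. Its libraries ran from 30.5 to 31.8 CPM in the control group, from 32.3 to 35.7 CPM under shUGDH-1 and from 28.6 to 30.9 CPM under shUGDH-2. The shUGDH-1 libraries were above all others, by a small margin. The log2 fold changes had 95% intervals from -0.01 to 0.25 (adjusted p = 0.18) and from -0.19 to 0.07 (adjusted p = 0.61, edgeR's quasi-likelihood test). The direct difference was -0.19 (SE 0.07, adjusted p = 0.055), and passed in edgeR without shNT replicate 1 (0.042) or with only these 2 groups fitted (0.042).

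The ratio of INHBA to FST counts within a library sets the subunit against its inhibitor without scaling for depth. Per 100 FST counts, INHBA had 22.9, 19.4 and 30 counts in the control libraries, 63.9, 52.3 and 60.4 under shUGDH-1, and 37.1, 42.2 and 39.3 under shUGDH-2. The 3 groups did not overlap, and FST had more counts than INHBA in all 9 libraries. Group means were 24.1 ± 5.39, 58.9 ± 5.95 and 39.5 ± 2.53 (SD, n = 3). The ratio contains the INHBA values known beforehand and has no test.

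**Figure D2:**
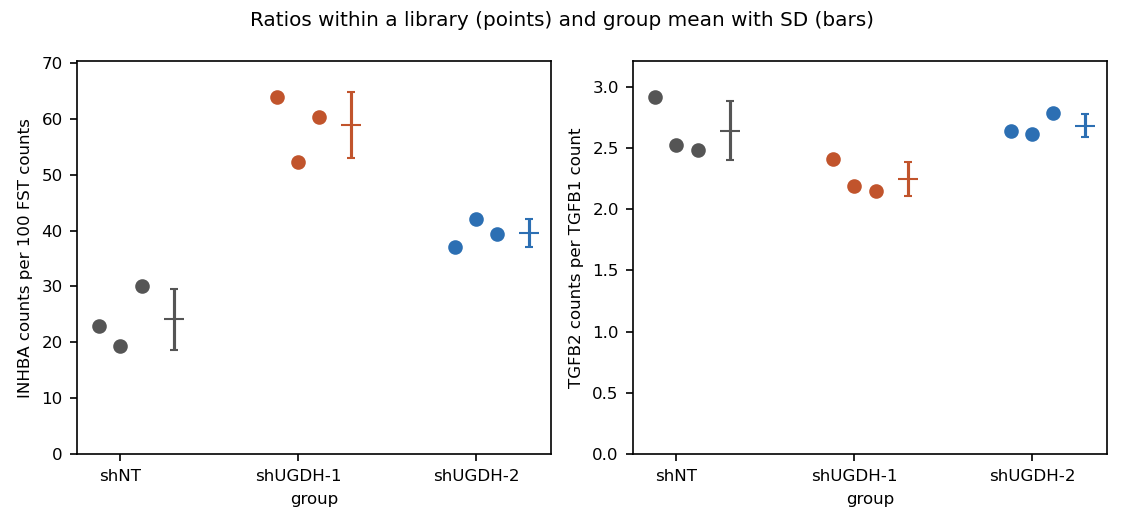
Left, INHBA counts per 100 FST counts, and right, TGFB2 counts per TGFB1 count, for each library (points), with group mean and SD. INHBA per FST is lowest in the control libraries and highest under shUGDH-1, and TGFB2 per TGFB1 is lowest under shUGDH-1.

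Of the 4 receptor genes, ACVR1B, which encodes the main type I receptor for activin, was the only one to pass in any of the 3 contrasts. The control libraries stood at 16.8, 19.0 and 20.1 CPM, those of shUGDH-1 at 14.5, 14.3 and 13.9 CPM, and those of shUGDH-2 at 17.6, 17.3 and 19.6 CPM. The shUGDH-1 libraries lay below all others, and the shUGDH-2 libraries lay within the control range. ACVR1B fell under shUGDH-1 at a log2 fold change of -0.38 (SE 0.09, adjusted p = 0.0012, edgeR's quasi-likelihood test). Under shUGDH-2 the 95% interval was -0.21 to 0.14 (adjusted p = 0.86). The direct difference of 0.35 (SE 0.09, adjusted p = 0.0059) was no longer called in edgeR without shUGDH-2 replicate 3 (0.066).

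ACVR2A and ACVR2B, the type II receptor genes, and ACVR1, a type I receptor gene whose product serves mainly bone morphogenetic proteins (BMPs), overlapped between all groups. Over the 9 libraries ACVR1 ran from 31.0 to 35.8 CPM, ACVR2A from 6.24 to 9.12 CPM and ACVR2B from 9.66 to 11.7 CPM. Under shUGDH-1 the 95% intervals of their log2 fold changes were -0.18 to 0.08 for ACVR1, -0.33 to 0.21 for ACVR2A and -0.27 to 0.19 for ACVR2B. Under shUGDH-2 they were -0.10 to 0.16, -0.42 to 0.11 and -0.23 to 0.22. ACVR2A shares 430 of 6770 exonic bases with ORC4 on the opposite strand, and it is unknown here whether reads were assigned by strand.

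TGFB1, which encodes TGF-beta 1, rose slightly under both hairpins. The control libraries stood at 82.7, 89.1 and 92.5 CPM, those of shUGDH-1 at 94.6, 100.5 and 99.8 CPM, and those of shUGDH-2 at 100.5, 101.6 and 98.0 CPM. The control libraries were lowest, and the UGDH hairpins overlapped. On the log2 scale the change was 0.16 (SE 0.04, adjusted p = 0.004) for shUGDH-1 and 0.19 (SE 0.04, adjusted p = 0.001) for shUGDH-2, from edgeR's quasi-likelihood test. Without shNT replicate 1, the lowest library, the shUGDH-1 value was 0.11 (adjusted p = 0.064). TGFB1 shares 215 of 3238 exonic bases with HNRNPUL1 on the opposite strand.

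TGFB2, which encodes TGF-beta 2, rose under shUGDH-2. The control libraries stood at 241.2, 224.8 and 229.9 CPM, those of shUGDH-1 at 227.5, 220.3 and 214.4 CPM, and those of shUGDH-2 at 265.3, 265.4 and 273.4 CPM. The shUGDH-2 libraries were above all others, and the shUGDH-1 libraries overlapped with control. On the log2 scale the change was 0.21 (SE 0.03, adjusted p = 9.6e-08) for shUGDH-2, from edgeR's quasi-likelihood test. For shUGDH-1 it was -0.07 (SE 0.03, adjusted p = 0.082), and passed in edgeR without shNT replicate 2 (0.032) or shUGDH-1 replicate 1 (0.044), at -0.09 each, whereas without shNT replicate 1 it was -0.04 (adjusted p = 0.47). The direct difference was 0.28 (SE 0.03, adjusted p = 2.3e-11). Of its 5151 exonic bases, 1371 are shared with TGFB2-OT1 on the same strand. TGFB2 had 2.92, 2.52 and 2.49 counts per TGFB1 count in the control libraries, 2.41, 2.19 and 2.15 under shUGDH-1, and 2.64, 2.61 and 2.79 under shUGDH-2, so shUGDH-1 was lowest without overlap.

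**Figure D3:**
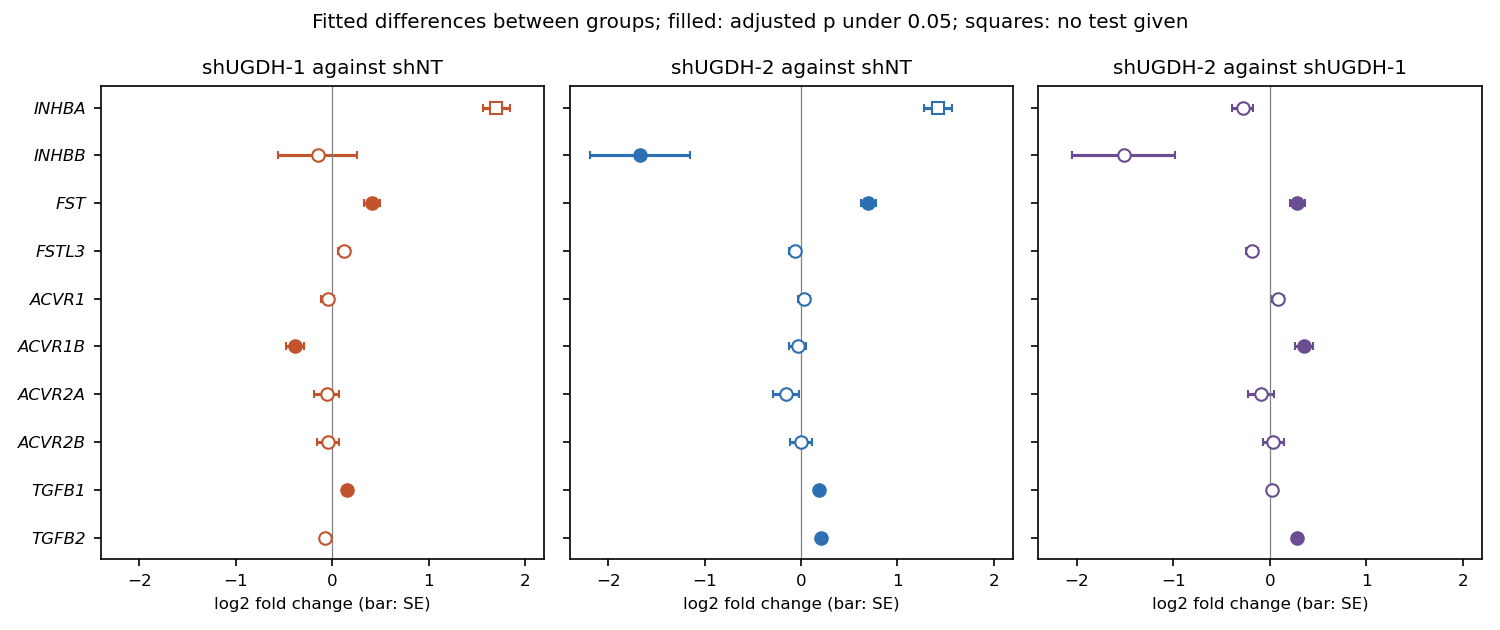
Log2 fold change with SE (x axis) of the 10 genes in the 3 contrasts, filled where the adjusted p was under 0.05 and square where no test is given. INHBA lies furthest to the right against shNT, INHBB has the widest error, and FST, ACVR1B and TGFB2 pass between the hairpins.

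INHBA aside, 3 of the other 9 genes passed under shUGDH-1, beside 20.8% of all 12546 genes. FST and TGFB1 were higher, beside 10.5% of all genes, and ACVR1B lower, beside 10.3%. Under shUGDH-2, 4 of the 9 passed, beside 14.9% of all genes. FST, TGFB1 and TGFB2 were higher, beside 8.04%, and INHBB lower, beside 6.81%. FST and TGFB1 were higher under both hairpins, as were 4.72% of all genes, in contrasts that share their control libraries. Between the hairpins, where INHBA did not pass, 3 of the 10 genes did, beside 10.9% of all genes. As the genes were picked with results known, nothing is read from these counts. The median log2 fold change of the 10, INHBA included, was -0.044 for shUGDH-1 and 0.014 for shUGDH-2, against -0.0026 and -0.0059 over all genes. Their median absolute log2 fold change was 0.138 and 0.17, against 0.098 and 0.086. Nothing is read from these medians either, because the rise of INHBA was known beforehand.

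The authors' deposited table for shUGDH-1 has adjusted p-values of 0.000158 for FST, 0.00375 for ACVR1B, 0.0335 for TGFB1 and 0.22 for TGFB2. The authors' deposited table for shUGDH-2 has 1.6e-10 for FST, 0.00611 for TGFB1, 1.62e-07 for TGFB2 and 0.912 for ACVR1B. INHBB is marked Low, with no adjusted p, in both of the authors' deposited tables.

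Set against length, the ligand genes held both ends of the range. In CPM per kilobase of annotated exon, control levels were 45 ± 1.6 (SD, n = 3) for TGFB2, 27.2 ± 1.5 for TGFB1, 10.2 ± 0.21 for FSTL3, 8.33 ± 0.48 for ACVR1 and 5.63 ± 0.24 for FST. ACVR1B followed at 3.28 ± 0.29, ACVR2A at 1.24 ± 0.13, ACVR2B at 0.682 ± 0.047, INHBA at 0.483 ± 0.091 and INHBB at 0.273 ± 0.081. Each step exceeded the sum of the neighbours' SDs, and the order was the same by principal transcript length. Under shUGDH-1, INHBA at 1.58 ± 0.11 stood above ACVR2A at 1.2 ± 0.12. Under shUGDH-2, INHBA at 1.29 ± 0.1 and ACVR2A at 1.12 ± 0.19 did not differ beyond their spread, nor did FST at 9.14 ± 0.77 from FSTL3 at 9.74 ± 0.37 or ACVR1 at 8.51 ± 0.41. Lengths are from GRCh38 and the counts from hg19, and the transcripts in use were not measured, so levels between genes are approximate.

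**Figure D4:**
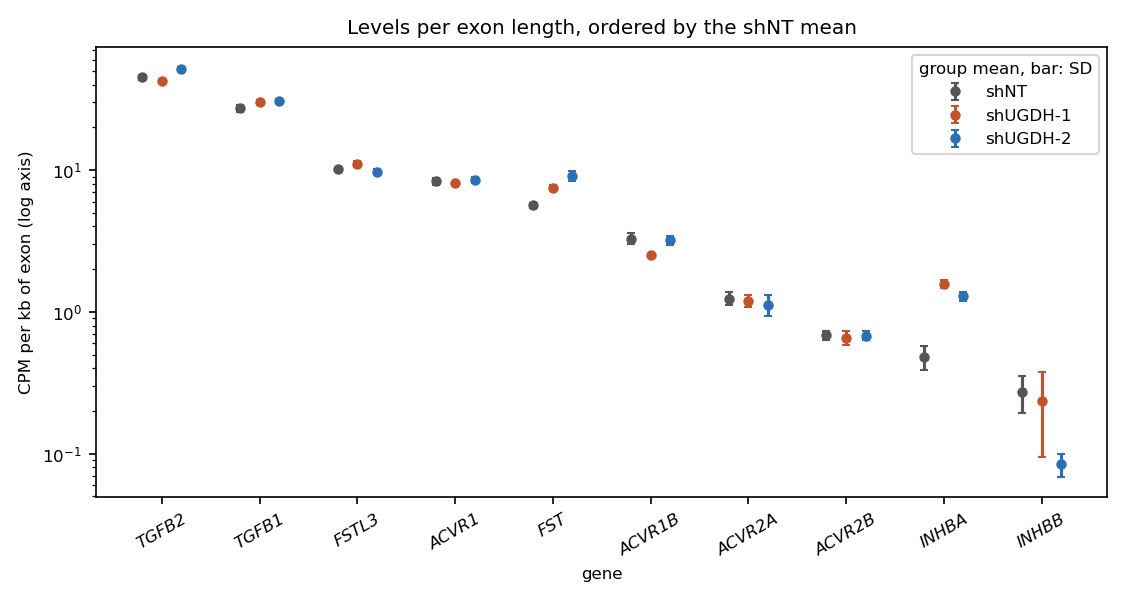
Group mean and SD of CPM per kilobase of exon (log axis) for the 10 genes, ordered by control level. TGFB2 and TGFB1 are highest and INHBB lowest in every group, and INHBA moves up under both UGDH hairpins.

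Promoter sequence is shown for INHBA and for the TGF-beta ligand genes, which were higher under both hairpins or under 1. The stretches are from RefSeq (GRCh38.p14), on the gene's strand and upstream of the RefSeq start. That of INHBA stops where GENCODE places an exon and lies within the gene's annotated span, since other INHBA transcripts start further upstream. Those of TGFB1 and TGFB2 lie outside the annotated span of their genes. Capitals mark CAGAC, the core of the SMAD-binding element.
INHBA, chr7:41703109-41703340, minus strand: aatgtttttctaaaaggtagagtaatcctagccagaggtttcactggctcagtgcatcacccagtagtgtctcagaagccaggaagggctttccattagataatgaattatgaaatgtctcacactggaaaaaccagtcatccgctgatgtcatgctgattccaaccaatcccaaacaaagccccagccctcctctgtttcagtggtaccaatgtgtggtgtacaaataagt
TGFB1, chr19:41353923-41354172, minus strand: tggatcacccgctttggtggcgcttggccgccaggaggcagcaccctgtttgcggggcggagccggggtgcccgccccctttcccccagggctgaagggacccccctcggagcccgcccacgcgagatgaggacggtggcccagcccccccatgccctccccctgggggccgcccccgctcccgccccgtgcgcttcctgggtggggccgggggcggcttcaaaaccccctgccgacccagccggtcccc
TGFB2, chr1:218345086-218345335, plus strand: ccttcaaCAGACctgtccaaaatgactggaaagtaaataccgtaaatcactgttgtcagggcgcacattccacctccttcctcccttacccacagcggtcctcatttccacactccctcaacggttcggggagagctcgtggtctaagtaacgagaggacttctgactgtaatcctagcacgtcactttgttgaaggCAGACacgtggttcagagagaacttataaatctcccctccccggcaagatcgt
On both strands of the 250 bases before the start, TGFB2 had CAGAC 2 times and the other 7 genes with a RefSeq promoter entry had it 0 times. Of 35116 promoters of this length, 38.0% held CAGAC. GENCODE places all 250 searched bases of ACVR2A and 220 of those of FST in exons of the gene itself. For INHBA, FSTL3 and ACVR2B it places 18, 27 and 39 there. The sequence TGANTCA, with N for any base, was present in FST alone among the 8, as TGATTCA, and in 6.6% of all promoters. The FST match lies in the exonic part of its stretch. The GC content was 42.8% for INHBA, 76.8% for TGFB1 and 50.4% for TGFB2.

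Of 99 further genes of the pathway, 63 passed the filter on low counts. Under shUGDH-1, 13 of these rose and 5 fell, beside 10.5% and 10.3% of all genes. Under shUGDH-2, 16 rose and 9 fell, beside 8.04% and 6.81% of all genes. Under both, 10 rose, beside 4.72% of all genes, and 4 fell, for which no share over all genes was computed. For each list below, counts for shUGDH-1 and shUGDH-2 stand beside 20.8% and 14.9% of all genes called in either direction, and in lists this small nothing is read from them. Their median log2 fold changes were 0.013 and 0.045. Some genes stand in more than 1 of the lists that follow.

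Among 7 other ligand genes, 1 rose under shUGDH-1 (10.5% of all genes did) and 2 under shUGDH-2 (8.04% did). BMP4, a BMP ligand gene, had means of 151, 187 and 181 CPM in the order shNT, shUGDH-1, shUGDH-2, and rose under both hairpins, at log2 fold changes of 0.31 and 0.26 (SE 0.03 each, adjusted p = 2e-11 and 5.7e-09, edgeR's quasi-likelihood test). GDF15, a stress-induced family member, had means of 14.4, 13.7 and 21.0 CPM and rose under shUGDH-2 (0.55, SE 0.09, adjusted p = 7.9e-06, same edgeR test). INHA, the inhibin alpha subunit gene, did not pass the filter, at 0.25, 0.14 and 0.078 CPM.

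Among 5 other receptor genes, 0 passed under shUGDH-1 (20.8% of all genes did) and 1 fell under shUGDH-2 (6.81% did). TGFBR3, betaglycan, a coreceptor for TGF-beta 2 and inhibin, stood at -0.25 on the log2 scale under shUGDH-2 (SE 0.07, adjusted p = 0.0064, edgeR's quasi-likelihood test), and at -0.15 (adjusted p = 0.19) without shNT replicate 1. Among 3 other inhibitor genes, NOG, which encodes the BMP antagonist noggin, rose under shUGDH-2 from 62.5 to 72.7 CPM (adjusted p = 0.0016, same edgeR test), and 0 passed under shUGDH-1.

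Among 9 genes of latency and activation, 3 rose and 1 fell under shUGDH-1 (20.8% of all genes passed), and 4 rose and 1 fell under shUGDH-2 (14.9% passed). THBS1, thrombospondin 1, which can activate latent TGF-beta, had means of 5426, 6404 and 6437 CPM (log2 fold changes 0.24 and 0.25, SE 0.01 each). FURIN, a protease that cleaves the TGF-beta precursors, rose by 0.12 under each hairpin (SE 0.03). LTBP1 and LTBP4 encode latent TGF-beta binding proteins and went opposite ways, LTBP1 at -0.32 for each hairpin and LTBP4 at 0.22 and 0.15. The LTBP1 calls (adjusted p = 0.022 and 0.026 in edgeR) were lost with DESeq2 (0.098 and 0.12) and without shNT replicate 3 (0.31 and 0.35), where the values were -0.17 and -0.18. They were also lost without shUGDH-1 replicate 1 (0.063) or 3 (0.086) for shUGDH-1, and without shUGDH-2 replicate 1 (0.17) or 3 (0.12) for shUGDH-2. The shUGDH-2 call of LTBP4 (adjusted p = 0.02 in edgeR) was lost with DESeq2 (0.087) and without shNT replicate 1 (0.23), shUGDH-2 replicate 1 (0.1) or shUGDH-2 replicate 2 (0.13). The fourth gene up under shUGDH-2 was LTBP2 (0.28, adjusted p = 0.012 in edgeR), named after its values were seen, whose direct difference between hairpins did not pass (0.15, adjusted p = 0.28).

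Among 17 SMADs and their regulators, 1 fell under shUGDH-1 (20.8% of all genes passed), and 1 rose and 2 fell under shUGDH-2 (14.9% passed). SMAD7, the inhibitory SMAD that the pathway itself induces, fell under both. Its libraries stood at 22.9, 22.4 and 21.2 CPM in the control group, 16.9, 18.3 and 18.6 CPM under shUGDH-1, and 16.9, 17.2 and 16.2 CPM under shUGDH-2, with every knockdown library below control. The log2 fold changes were -0.31 (SE 0.08, adjusted p = 0.0033) and -0.41 (SE 0.08, adjusted p = 0.00024) by edgeR's quasi-likelihood test. Under shUGDH-2, SMAD3 rose by 0.10 on the log2 scale (SE 0.03, adjusted p = 0.0035) and SMAD5, which serves BMP receptors, fell by 0.29 (SE 0.05, adjusted p = 1.3e-05, same edgeR test).

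SMAD2/3 target genes went both ways: of 20 tested, 8 rose and 4 fell under shUGDH-1 (10.5% and 10.3% of all genes did), and 7 rose and 5 fell under shUGDH-2 (8.04% and 6.81% did). Under both, 5 rose, beside 4.72% of all genes, and 3 fell, for which no share over all genes was computed. NEDD9, a focal adhesion scaffold gene, had means of 50.8, 73.7 and 68.8 CPM and rose under both (log2 fold changes 0.53 and 0.44). FN1, fibronectin, had means of 130, 178 and 153 CPM and rose under both (0.45 and 0.24), as did CDKN1A, which encodes the cell cycle inhibitor p21, at 149, 177 and 167 CPM (0.25 and 0.17). SMAD7, in this list too, fell under both. TIMP1 (-0.19 and -0.15) and TSC22D1 (-0.22 and -0.13), named after their values were seen, were also called lower under both in edgeR. Their calls under the alternatives were not examined.

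Among 6 SMAD1/5 target genes, 1 rose under shUGDH-1 (10.5% of all genes did), and 1 rose and 1 fell under shUGDH-2 (14.9% passed in either direction). ID1, an inhibitor of differentiation and a BMP target, fell under shUGDH-2 by 0.18 on the log2 scale (SE 0.05, adjusted p = 0.009, edgeR's quasi-likelihood test), a call lost without shNT replicate 2 (0.068), shNT replicate 3 (0.069) or shUGDH-2 replicate 3 (0.098). The gene that rose was MSX2 under both hairpins.

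**Figure D5:**
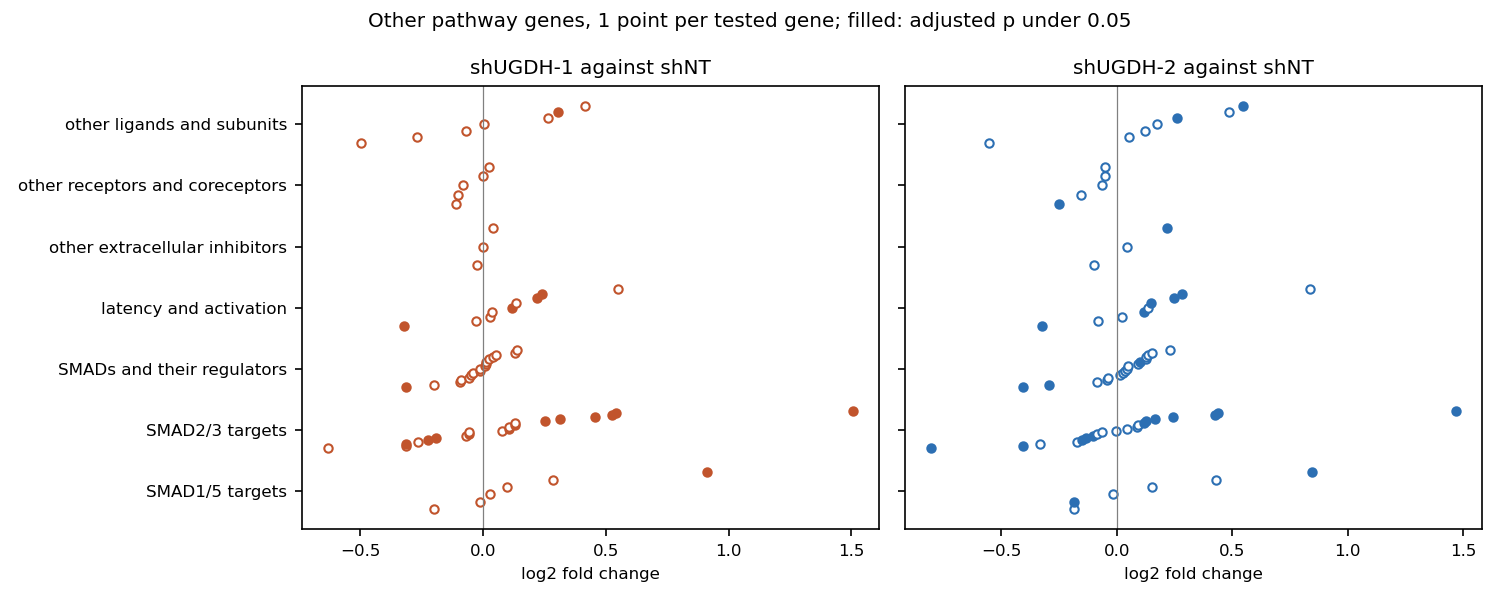
Log2 fold change (x axis) of each tested pathway gene outside the 10, by list (y axis), for each UGDH hairpin against shNT, filled where the adjusted p was under 0.05. SMAD2/3 targets lie on both sides of 0.

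The profiles nearest to that of INHBA were those of LIPG, SCD, SLC16A7, SYNDIG1 and NRP2. The root mean square difference of log2 CPM over the 9 libraries, centred on the shNT mean, was 0.272, 0.306, 0.361, 0.381 and 0.382 in that order, among 10522 genes with at least 5 CPM in their highest group. The list follows from the INHBA values known beforehand and has no test. LIPG encodes endothelial lipase, SCD a fatty acid desaturase, SLC16A7 a monocarboxylate transporter, SYNDIG1 a synaptic membrane protein and NRP2 a coreceptor for semaphorins.

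Libraries held 9249738 to 13328002 counts. Within groups, the variance between 2 libraries was 1.19 to 1.91 times that expected from counting, highest in both pairs with shNT replicate 1. VIM, CD44, EGFR and AXL, listed for the cell line, had control means of 271.2 to 2263 CPM. ESR1, PGR, CDH1, KRT5 and KRT14, listed as absent or low, had 0 to 0.22 CPM, but GATA3 of the same list was at 37.5 CPM. Under shUGDH-1 and shUGDH-2, CDH1 had 0.57 and 0.81 CPM, KRT5 0.66 and 0.78 CPM, and KRT14 0.77 and 0.42 CPM, all untested. KRT5 and KRT14 varied by library, with 15 and 22 counts in shUGDH-1 replicate 2 and 25 and 15 in shUGDH-2 replicate 1. The leukocyte markers PTPRC, CD3E and LYZ and the fibroblast markers PDGFRA, DCN and LUM were at 0 to 0.11 CPM in every group, and COL3A1 was at 0.11, 0.11 and 0.30 CPM. CD68 (96.0, 85.5 and 88.2 CPM) fell under both hairpins, and COL1A1 (9.89, 10.6 and 13.3 CPM) rose under shUGDH-2, and their part in the results was not tested.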

How the data were processed

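RNA of 9 libraries from 1 cell line, 3 per hairpin, was sequenced as read pairs, per the labels. The deposited table holds raw whole-number counts per gene. The submitters' processing notes name STAR, DESeq, DESeq2 and build hg19. Their versions, the annotation and strand handling: not given in the sources used here. Per the file headers, the authors' 2 comparison tables hold mean signal, log2 fold change, p-value and adjusted p. Values from them are named as the authors'.

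Of 23710 entries, 28 carried symbols turned into dates (0.232% of counts) and name no gene here. edgeR 4.0.16 fitted all 9 libraries (filterByExpr, TMM factors 0.997 to 1.003, robust quasi-likelihood, a mean per group, 6 residual degrees of freedom) on 12546 genes. Each p was adjusted by Benjamini-Hochberg over all of them, with a threshold of 0.05. The fit was tested on simulated data. The 10 genes and all lists were chosen with earlier results of these data known. From each further list, up to 4 genes with at least 5 CPM in the highest group are named, those called under both hairpins first, then those called under 1, and others are marked as chosen later. Libraries held 9249738 to 13328002 counts, which limits INHBB most. Alternatives were DESeq2's size factors, DESeq2 1.42.0, no filter, 2 groups only, a replicate block and leaving out each library.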

Additional observations from a re-analysis of the deposited data

Results flagged for a closer look

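These genes differed between the UGDH hairpins in the direct contrast of shUGDH-2 with shUGDH-1 (log2 differences, edgeR's quasi-likelihood test, adjusted over all genes). Of the 10 genes, FST was higher under shUGDH-2 by 0.28 (adjusted p = 0.0073), ACVR1B by 0.35 (adjusted p = 0.0059) and TGFB2 by 0.28 (adjusted p = 2.3e-11), without overlap of libraries. The FST call was lost with DESeq2 (0.06) and, in edgeR, without shUGDH-1 replicate 1 (0.063) or shUGDH-2 replicate 3 (0.11). The ACVR1B call was lost in edgeR without shUGDH-2 replicate 3 (0.066).

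Of the other pathway genes named, GDF15 was higher under shUGDH-2 by 0.62 (adjusted p = 7.3e-07), NOG by 0.22 (adjusted p = 0.0017) and SMAD3 by 0.11 (adjusted p = 0.00095). IL11, a cytokine gene and SMAD target singled out after its values were seen, stood at 31.3, 29.7 and 27.3 CPM in the control libraries, at 42.5, 43.3 and 42.8 CPM under shUGDH-1, and at 28.1, 30.5 and 29.6 CPM under shUGDH-2, a difference of -0.54 (adjusted p = 9.8e-10). FN1 differed by -0.21 (adjusted p = 1.2e-06), SMAD5 by -0.20 (adjusted p = 0.0038) and ID1 by -0.17 (adjusted p = 0.021). Without shUGDH-1 replicate 1, NOG (adjusted p = 0.068) and SMAD5 (0.057) no longer passed in edgeR. ID1 no longer passed with DESeq2 (0.09) or without shUGDH-1 replicate 2 (0.09), shUGDH-1 replicate 3 (0.11), shUGDH-2 replicate 2 (0.069) or shUGDH-2 replicate 3 (0.17).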

How the results depend on the processing

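No value named here changed sign while called under the alternatives run. Calls between the hairpins moved most: 3 of the 10 genes passed, 5 with only the 2 groups compared, and 1 to 5 when a library was left out, with 5 without shNT replicate 1 and 1 without shUGDH-2 replicate 3. Against shNT, leaving out a library gave 3 to 5 calls among the 10 for shUGDH-1 and 4 to 5 for shUGDH-2. Those counts include INHBA, whose rise was known beforehand, so nothing is read from them. Among the other pathway genes, leaving out a library gave 15 to 20 and 22 to 25 calls. DESeq2 called 14 and 19 of those genes, against 18 and 25 in edgeR. With a library left out, INHBA stood between 1.60 and 1.86 for shUGDH-1 and between 1.32 and 1.58 for shUGDH-2 on the log2 scale. Libraries with the same replicate number showed no shared deviation: deviations from the group means correlated at -0.044 to 0.064 for the same number and at -0.046 to 0.056 for other numbers. These correlations cannot show whether libraries of the same number were prepared together. With the replicate number as a block, 4, 5 and 3 of the 10 genes passed in the 3 contrasts, INHBA again counted against shNT. Of the other pathway genes, 18 and 26 passed against shNT. INHBA stood at 1.71 and 1.42, and 0 of 85 calls of single genes changed. DESeq2 gave no adjusted p for INHBB in any contrast or for PDGFB under shUGDH-2 and between the hairpins. Depth limits INHBB, with 32, 28 and 10 counts per group.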

Other observations

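PDGFB and MSX2, low-level SMAD target genes singled out after their values were seen, had larger fold changes than the targets described above. PDGFB, which encodes a platelet-derived growth factor subunit, had 13, 11 and 7 counts in the control libraries, 22, 33 and 31 under shUGDH-1, and 27, 25 and 36 under shUGDH-2. Every knockdown library was above control, with log2 fold changes of 1.51 (SE 0.31, adjusted p = 0.00015) and 1.47 (SE 0.31, adjusted p = 4e-04) by edgeR's quasi-likelihood test, though DESeq2 gave no adjusted p for the second. MSX2, a homeobox gene, had 27, 33 and 18 counts in the control libraries, 52, 55 and 36 under shUGDH-1, and 45, 40 and 58 under shUGDH-2. It rose by 0.91 (SE 0.22, adjusted p = 0.001) and 0.84 (SE 0.22, adjusted p = 0.004), and the second call was lost in edgeR without shNT replicate 3 (0.66, adjusted p = 0.05) or shUGDH-2 replicate 3 (0.68, adjusted p = 0.057). ANGPTL4, a low-level SMAD target gene also singled out afterwards, went the other way, at 3.18, 2.07 and 1.80 CPM. Its log2 fold changes were -0.63 (SE 0.24, adjusted p = 0.056) and -0.805 (SE 0.25, adjusted p = 0.018), same edgeR test. Its calls under the alternatives were not examined.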
